A study of Arabidopsis thaliana with 12 samples.

Results

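The 9 genes of 3 histone variant families were followed through an NAD tagSeq experiment on seedlings of Arabidopsis thaliana: the H3.3 genes HTR4 (AT4G40030), HTR5 (AT4G40040) and HTR8 (AT5G10980), the H2A.Z genes HTA8 (AT2G38810), HTA9 (AT1G52740) and HTA11 (AT3G54560), and the linker histone genes H1.1 (AT1G06760), H1.2 (AT2G30620) and H1.3 (AT2G18050). They were picked by gene ID and not by a cut on their values, although with earlier results of these data known. They make up 9 of the 22337 gene IDs with a read. All 9 were listed in the table of all reads and had at least 1 tagged read in some library.

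NAD tagSeq looks for transcripts whose 5′ end carries NAD+ in place of the usual cap. At such ends ADPRC, short for adenosine diphosphate ribosylcyclase, allows the attachment of a tag made of RNA, by which molecules can then be captured (enrichment). Single RNA molecules are read by Nanopore direct RNA sequencing, and the background of tagging and capture is measured in reactions that lack the enzyme. All libraries came from whole Col-0 seedlings, 12 days old, grown on medium with 1% sucrose at 23 °C under 16 h of light and 8 h of darkness, with no further treatment and no mutant line. The 12 libraries were enriched poly(A) RNA with ADPRC (n = 3) and without it (n = 3), poly(A) RNA read without enrichment with ADPRC (n = 3) and without it (n = 1), and enriched total RNA with and without ADPRC (n = 1 each). The labels do not say whether replicates came from separate plates or extractions, so the tests cover the spread between libraries alone, which may be technical.

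DNA in the nucleus is wound around octamers of histones, and variants of these proteins mark parts of the genome. The canonical H3.1, H2A, H2B and H4 are made mainly when DNA is copied, whereas H3.3 is placed in chromatin at any time of the cell cycle and is found over transcribed genes. H2A.Z, which the SWR1 remodelling complex exchanges for H2A, sits near the start of genes and over the body of genes that respond to the environment, and H1 binds the linker DNA between nucleosomes and compacts it. HTR4, HTR5 and HTR8 code for the same H3.3 protein, H1.1 and H1.2 are the main linker histones of the plant, and H1.3 is a shorter form known to be induced by drought and low light. Plant histone messenger RNAs carry poly(A) tails, so that poly(A) libraries hold them.

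Levels are the deposited values, written TPM as in the files, and behave as CPM of all reads of the library. They were not divided by transcript length: in direct RNA sequencing a read stands for a molecule, and the order of genes given here is an order of reads. Enriched libraries with ADPRC held 1175516 to 1233999 reads, those without it 390009 to 948433, unenriched libraries with ADPRC 378322 to 619122 and the one without it 434742, while the total RNA libraries held 6479 and 1237. Over all genes 19.6% ± 5.00 of reads were tagged after enrichment with ADPRC (SD, n = 3) and 0.192% ± 0.0521 without it, 0.625% ± 0.104 in unenriched libraries with ADPRC and 0.00207% in the one without it. In the poly(A) libraries the 3 leaf markers, all detected, summed to 45097 to 55525 TPM. The 3 root markers, all detected, summed to 1276 to 1622 TPM in enriched libraries with ADPRC, to 1738 to 2238 TPM in those without it, and to 2544 to 3167 TPM in unenriched libraries, and their part in the results was not tested. Markers of dividing cells summed to 15.4 to 43.2 TPM, those of maturing seed to at most 13.2 TPM, and the pollen markers, of which 1 of 3 had a read, reached at most 1.05 TPM. In bulk seedlings fewer cells of a type and less RNA per cell cannot be told apart.

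HTR4 and HTR5 were the most read of the 9 genes before enrichment. In the unenriched libraries with ADPRC, HTR4 had 687, 598 and 633 TPM in replicates 1, 2 and 3 (mean 639 ± 45.2, SD), the 181st highest mean among 19289 genes with reads there. Its neighbour on the chromosome, HTR5, had 550, 476 and 507 TPM (511 ± 36.8). HTR8, the H3.3 gene at another locus, had 243, 231 and 281 TPM (252 ± 25.8). Within each of these libraries the order was HTR4, HTR5, HTR8, and no ranges overlapped. Because the 3 genes code for the same protein, how the authors' counting split reads between the copies is a source of uncertainty for each single value and less so for their sum, 1402 ± 89.1 TPM.

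The H2A.Z reads came almost wholly from HTA9. It had 365, 350 and 311 TPM before enrichment (342 ± 27.9), which was 86.8% ± 4.40 of the reads of the family. HTA11 had 26.4, 40.4 and 59.0 TPM (41.9 ± 16.3), and HTA8 had 10.6, 9.69 and 8.93 TPM (9.73 ± 0.820), from 15 reads in all. HTA9 overlaps AT1G52750 in the TAIR10.1 gene table, whose level was 5.54 ± 6.65 TPM in these libraries.

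Of the linker histone genes H1.1 was the most read before enrichment, with 124, 187 and 175 TPM (162 ± 33.5). H1.2 had 92.5, 120 and 123 TPM (112 ± 16.8) and the stress-induced H1.3 26.4, 17.8 and 25.0 TPM (23.1 ± 4.65). H1.1 lay above H1.2 in each of the 3 libraries, and the ranges of these neighbours in the order, 124 to 187 and 92.5 to 123 TPM, came within about 1 TPM of each other. H1.1 overlaps AT1G06750, with no reads in these libraries, and AT1G04503, with 22.7 ± 5.25 TPM. Across all 9 genes the order was HTR4, HTR5, HTA9, HTR8, H1.1, H1.2, HTA11, H1.3 and HTA8, in which only the neighbours HTA11 and H1.3 overlapped in range. The single unenriched library without ADPRC gave the same order of genes, with 679 TPM for HTR4, 458 for HTR5, 329 for HTA9, 239 for HTR8, 177 for H1.1, 115 for H1.2, 32.2 for HTA11, 25.3 for H1.3 and 6.90 for HTA8.

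**Figure D1:**
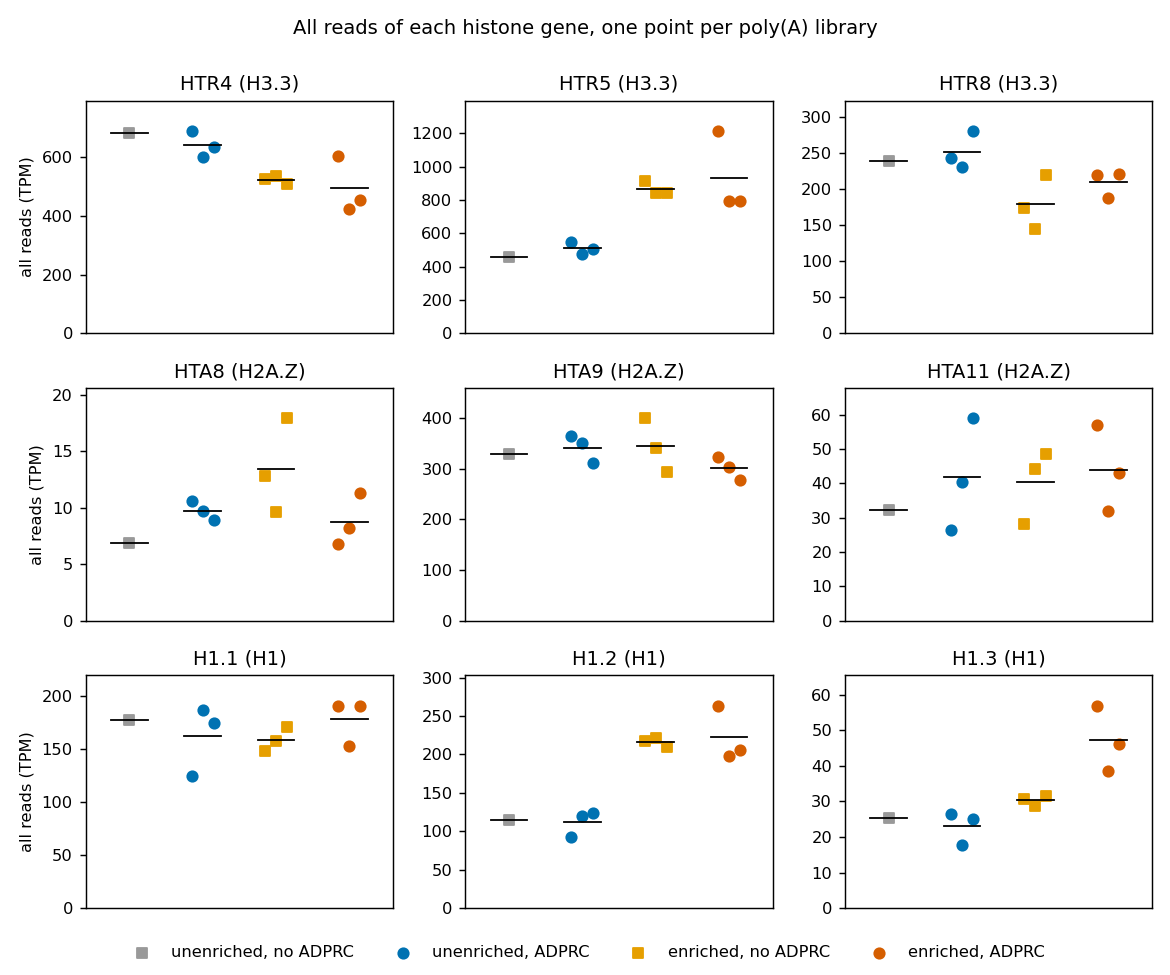
All reads of each histone gene in TPM (linear axis from 0, a scale of its own for each gene), with a point for each of the 10 poly(A) libraries and a line at the group mean. HTR5 and H1.2 lie higher in all 6 enriched than in all 4 unenriched libraries, and HTR4 in enriched libraries lies at 424 to 601 TPM against 598 to 687 TPM.

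Whether capture of tagged molecules changed the make-up of all reads was asked by comparing enriched with unenriched libraries, both with ADPRC. HTR5 and H1.2 had 1.83 and 1.99 times their unenriched level after enrichment, H1.3 2.05 times, and the other 6 genes did not pass the test. HTR5 had 1215, 795 and 796 TPM after enrichment (935 ± 242, SD, n = 3), all above its unenriched values, a log2 difference of 0.84 (SE 0.17, limma adjusted p = 0.0164). H1.2 had 264, 198 and 206 TPM (223 ± 35.8), also all above, with a log2 difference of 0.99 (SE 0.17, limma adjusted p = 0.00908). H1.3 had 57.0, 38.5 and 46.2 TPM (47.2 ± 9.29), again without overlap, with a log2 difference of 1.00 (SE 0.26, limma adjusted p = 0.0470). Thus 3 of 9 genes were called higher and 0 lower, where limma called 2.99% of the 18831 genes tested higher and 1.96% lower. For the median gene the log2 difference was 0.20.

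The call of H1.2 held under all 15 alternatives run, with limma, edgeR or DESeq2 adjusted p up to 0.0446. That of HTR5 was lost when any one of the 3 unenriched libraries was left out (limma adjusted p = 0.0506, 0.0865 and 0.0824 without replicates 1, 2 and 3). That of H1.3 was lost in the same fits, without enriched replicate 1, with DESeq2 and with centring on commonly read genes (adjusted p from 0.0524 to 0.125).

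HTR4, the gene beside HTR5, was not called. It had 601, 424 and 452 TPM after enrichment (492 ± 95.5), and replicate 1 at 601 TPM lay above the lowest unenriched library, so the groups overlapped. Its log2 difference was -0.39 (SE 0.15, limma adjusted p = 0.169). Without enriched replicate 1, in which HTR4, HTR5, H1.2 and H1.3 were each at their highest, the difference was -0.54 (limma adjusted p = 0.00299). HTR8 had 219, 188 and 221 TPM (209 ± 18.9, log2 difference -0.26, limma adjusted p = 0.337). HTA9 (301 ± 22.7 TPM), HTA11 (44.0 ± 12.6), HTA8 (8.78 ± 2.33) and H1.1 (178 ± 21.8) had log2 differences of -0.18, 0.10, -0.15 and 0.15 (limma adjusted p from 0.491 to 0.891).

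Libraries without ADPRC put the same question in reactions that lacked the enzyme. HTR5 there had 913, 841 and 842 TPM after enrichment (865 ± 41.0, n = 3) against 458 TPM in the unenriched library, a ratio of 1.89 beside 1.83 with ADPRC. H1.2 had 218, 221 and 210 TPM (216 ± 5.70) against 115 TPM, a ratio of 1.88 beside 1.99. HTR4 had 523, 536 and 507 TPM (522 ± 14.3) against 679 TPM, a ratio of 0.769 beside 0.770. For these 3 genes the enriched libraries differed from the unenriched ones by similar ratios with and without the enzyme, against a single library in the second case. H1.3 had 30.8, 28.8 and 31.6 TPM (30.4 ± 1.45) against 25.3 TPM, a ratio of 1.20 beside 2.05. A fit to all 10 poly(A) libraries with ADPRC as a term, added after the values were seen, called HTR5 (0.87, limma adjusted p = 3.32e-06), H1.2 (0.96, 7.30e-06) and H1.3 (0.74, 0.0365) higher and HTR4 (-0.39, 0.0439) lower. That fit treats same-numbered enriched libraries as independent, although they deviated together in all reads. In it 6.49% of 19871 genes were called higher and 3.13% lower.

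The ratio of 2 genes within a library does not depend on the scaling of that library. The log2 ratio of HTR4 to HTR5 was -0.82 ± 0.13 in the 6 enriched libraries and 0.38 ± 0.12 in the 4 unenriched ones. HTR4 was thus the more read gene before and HTR5 after enrichment, as far as reads were rightly split between these copies. The sum of the H3.3 genes was 1402 ± 89.1 TPM before and 1637 ± 347 TPM after enrichment with ADPRC. Without ADPRC it was 1376 TPM in the single unenriched library and 1567 ± 44.8 TPM after enrichment. The log2 ratio of HTR5 to HTR8 was 2.21 ± 0.29 in enriched and 1.00 ± 0.14 in unenriched libraries, and that of H1.1 to H1.2 was -0.38 ± 0.16 and 0.55 ± 0.10. For each of these 3 pairs no enriched library overlapped the unenriched ones. Taken as independent libraries, the groups gave p = 0.00952 in a two-sided exact permutation test, the smallest that 6 against 4 allows, and 0.0286 after Benjamini-Hochberg adjustment over the 9 pairs within families. Same-numbered enriched libraries deviated together, however, and with each such pair of libraries averaged the exact p was 0.0571, the smallest that 3 against 4 allows, and 0.171 after adjustment, so that none of the 3 passed. Leaving out any one of the 4 unenriched libraries also took the 3 calls to 0. There the smallest p that 6 against 3 allows cannot pass for 3 pairs after adjustment over the 9. That loss thus says nothing about the pairs. For HTR4 to HTR8 the log2 ratio was 1.39 ± 0.32 and 1.39 ± 0.16 (exact p = 0.971). H1.1 to H1.3 differed by -0.65 and did not pass after adjustment with libraries taken as independent (exact p = 0.0381, adjusted 0.0857), and the other H1 pair and the 3 H2A.Z pairs gave exact p-values from 0.257 to 0.771. The pairs were tested after their values were seen, and with the libraries with ADPRC alone 3 against 3 cannot give an exact p under 0.1, so none passes there.

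As parts of the family, HTR4 made up 45.6% ± 0.967 of H3.3 reads before enrichment and 30.2% ± 0.617 after it, and HTR5 36.5% ± 0.711 and 56.8% ± 2.76 (with ADPRC, SD, n = 3). Without ADPRC the unenriched library had 49.3% HTR4 and 33.3% HTR5, and the enriched ones 33.3% ± 1.63 and 55.2% ± 1.50. H1.1 made up 54.3% ± 3.32 of H1 reads before and 39.9% ± 2.98 after enrichment, and H1.2 37.7% ± 0.732 and 49.6% ± 2.78. HTA9 stayed between 85.2% and 89.4% of H2A.Z reads in the means of the 4 poly(A) groups.

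**Figure D2:**
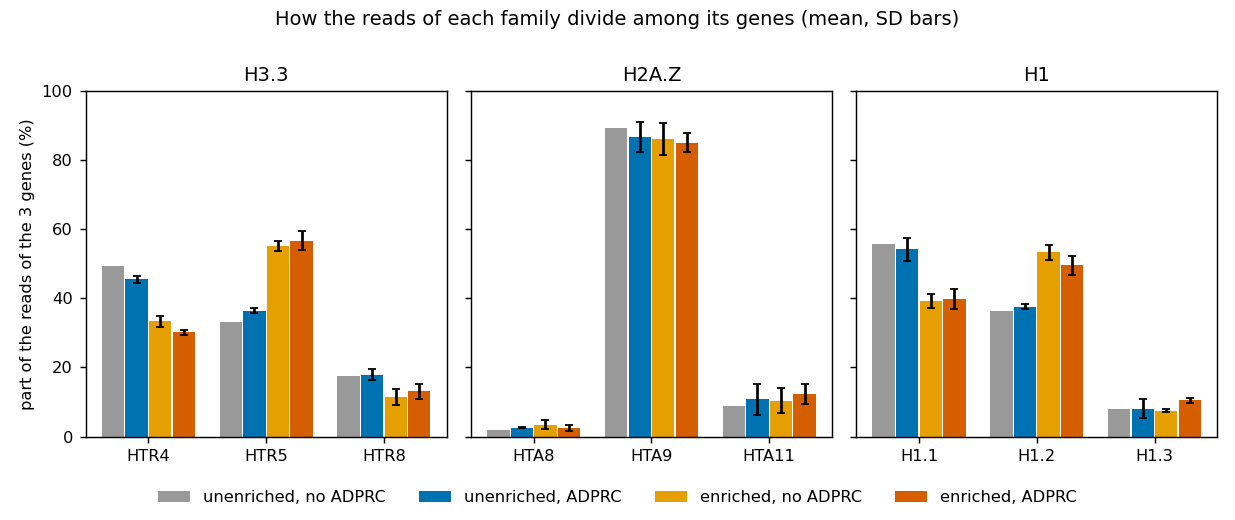
Percent of the reads of each histone family that came from each of its 3 genes, per group of poly(A) libraries (bars, mean; error bars, SD over 3 libraries; the unenriched group without ADPRC is 1 library). HTR5 passes HTR4, and H1.2 passes H1.1, in enriched libraries with and without ADPRC, and HTA9 holds at least 85.2% of the H2A.Z reads in each group.

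Among all reads of enriched libraries, no difference between reactions with and without ADPRC passed the test for the 9 genes. The comparison called 0 of 9 genes higher and 0 lower, where limma called 0.0731% of 19150 genes higher and 0.0418% lower. At an unadjusted p under 0.05 there was 1 gene, H1.3, whose 38.5 to 57.0 TPM with ADPRC lay above the 28.8 to 31.6 TPM without it (log2 difference 0.60, SE 0.24, limma adjusted p = 0.619). HTR5 had 935 ± 242 TPM with and 865 ± 41.0 without ADPRC (0.08, 95% interval -0.30 to 0.46), and its groups overlapped. H1.2 had 223 ± 35.8 and 216 ± 5.70 TPM (0.03, 95% interval -0.32 to 0.38). The replicate numbers pair these libraries, and with the replicate number as a block limma called 151 genes higher and 62 lower in place of 14 and 8, and again 0 of the 9 histone genes (H1.3 limma adjusted p = 0.305). By edgeR and by DESeq2 the count among the 9 was 0 as well.

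Tagged reads of the 9 genes were set against the background of the reaction in enriched libraries. HTR5 led with 459, 225 and 175 tagged TPM with ADPRC (286 ± 151) against 0, 1.92 and 2.11 TPM without it. These are 1030 tagged reads against 3, a ratio of 176 with a counting interval of 60.0 to 854, where reads and library totals were pooled over the libraries of a group, as in all such ratios here. The ratio of the mean TPM was 213. HTR4 had 182, 102 and 66.5 tagged TPM (117 ± 59.3) against 0, 1.92 and 0 TPM, or 420 reads against 1, a pooled ratio of 215 (38.4 to 8517) and a ratio of means of 182, so that the order of these neighbours depended on the way of averaging. HTR8 had 82.5, 63.9 and 51.9 tagged TPM (66.1 ± 15.4) while libraries without the enzyme had no tagged read, which makes it at least 41.0-fold higher (the floor was 3 reads over the group). All 3 H3.3 genes thus had every library with ADPRC above every library without it, and replicate 1 was the highest for each. That separation was not particular to H3.3. It held for every tested gene of the 9, and limma called 96.7% of 7634 genes higher with ADPRC.

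HTA9 had 75.7, 44.2 and 24.3 tagged TPM with ADPRC (48.1 ± 25.9) against 0, 3.84 and 0 without it, or 173 reads against 2, a ratio of 44.3 (12.1 to 369). HTA11 had 27.2, 13.1 and 11.3 tagged TPM (17.2 ± 8.70) and none without ADPRC, at least 10.7-fold higher. HTA8, the least read gene of the family, had 0, 1 and 2 tagged reads with ADPRC and none without it, and was not tested. The H2A.Z genes thus kept in tagged reads the order they had in all reads.

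H1.2 had 51.0, 27.0 and 17.0 tagged TPM with ADPRC (31.7 ± 17.5) and none without it, at least 19.6-fold higher. H1.1 had 29.8, 20.5 and 20.3 tagged TPM (23.5 ± 5.43) and none without it, at least 14.6-fold higher. H1.3 had 17.9, 11.5 and 11.3 tagged TPM (13.6 ± 3.73) against 2.56, 0 and 1.05 TPM, or 49 reads against 2, a ratio of 12.5 (3.29 to 107). The ranges of H1.1 and H1.2 overlapped in tagged reads.

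HTR8, HTA11, H1.1 and H1.2 had no tagged read without ADPRC and entered the fit through the libraries with it alone, so that the filter fixed their direction. HTR4, HTR5, HTA9 and H1.3 had tagged reads in both groups, but without ADPRC in fewer than 3 libraries. They too passed the filter, which asks for 3, only through libraries with ADPRC, so that it favoured their direction. HTR4, HTR5, HTA9 and H1.3 were called higher with ADPRC (limma adjusted p up to 0.00188). Because the filter favoured that direction, the calls are no evidence for these members. Their log2 differences ran from 2.91 (SE 0.51, H1.3) to 7.02 (SE 0.60, HTR5). Of all 7634 genes in the fit 96.7% were called higher and 0% lower, with a log2 difference of 2.32 for the median gene. The log2 differences of genes without control reads rest on the pseudocount. The directions hold on the deposited scale, relative to all reads. After centring each library on the genes tagged in all 6, 0 of the 8 genes tested were higher and 5 lower. Over all 7634 genes 54 were then higher and 7114 lower. With edgeR and TMM scaling 3 of the 8 were higher, beside 533 of the 7634. With DESeq2 H1.3 was no longer called (0.98, DESeq2 adjusted p = 0.433).

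Enrichment was also compared on tagged reads with ADPRC alone. HTR5 rose from 2.64, 9.69 and 10.7 tagged TPM before enrichment (7.69 ± 4.40) to 286 ± 151 TPM after it, from 13 reads to 1030, a pooled ratio of 34.0 (counting interval 19.8 to 64.0; limma adjusted p = 0.000497). HTR4 had the same 13 tagged reads before enrichment and rose to 117 ± 59.3 TPM, a pooled ratio of 13.9 (8.02 to 26.2; limma adjusted p = 0.00141). The neighbours with equal counts of tagged reads before enrichment differed after it in each of the 3 libraries, HTR5 being higher, although their ranges across libraries overlapped. Their means of all reads moved apart as well, from 511 to 935 TPM for HTR5 and from 639 to 492 TPM for HTR4. After enrichment the tagged share of HTR5 was 1.30-fold that of HTR4. How far level and share each made up the difference in tagged reads was not tested. HTR8 went from 3 reads to 239, a ratio of 34.2 (11.6 to 167). HTA9 went from 1 read to 173, a ratio of 74.2 (13.1 to 2948), HTA11 from 1 to 62, a ratio of 26.6 (4.60 to 1067), and H1.1 from 2 to 85, a ratio of 18.2 (4.89 to 153). H1.2 and H1.3 had no tagged read before enrichment and were at least 16.5-fold and 7.04-fold higher after it. All of these intervals cover counting error only and overlap one another.

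H1.2 and H1.3 entered that fit through the enriched libraries alone, so that the filter fixed their direction too. HTR8, HTA9, HTA11 and H1.1 were tagged in fewer than 3 unenriched libraries and also passed the filter only through enriched ones. The filter thus favoured their direction, whereas HTR4 and HTR5 could have passed without enriched libraries. The 6 genes with a tagged read in both groups were called higher, where limma called 95.7% of 7623 genes higher and 0% lower. Given the filter, the calls of HTR8, HTA9, HTA11 and H1.1 are no evidence for these members. Among the 8 histone genes in the fit 1 was called with edgeR and TMM scaling, 5 with DESeq2, and 0 with centring on genes tagged in every library. Of all 7623 genes, 127, 961 and 59 were called higher under these settings, with 6063 lower under centring. HTR4 and HTR5 were the members tagged in all 3 unenriched libraries. In a fit of such genes alone, added after the values were seen, both were called higher, as were all 326 genes in it.

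The tagged share, tagged reads over all reads of a gene, sets the members side by side apart from their level. After enrichment with ADPRC it was highest for HTA11, at 47.8%, 41.0% and 26.4% in replicates 1, 2 and 3 (38.4% ± 10.9, SD), from 159 reads in all. HTR8 followed with 37.6%, 34.1% and 23.4% (31.7% ± 7.37) and HTR5 with 37.7%, 28.4% and 22.0% (29.4% ± 7.92). H1.3 had 31.3%, 29.8% and 24.6% (28.6% ± 3.55), and HTR4 had 30.3%, 24.0% and 14.7% (23.0% ± 7.83). Of the lower shares, HTA9 had 23.4%, 14.6% and 8.75% (15.6% ± 7.39), H1.2 19.4%, 13.6% and 8.27% (13.8% ± 5.54), and H1.1 15.6%, 13.4% and 10.6% (13.2% ± 2.52). HTA8 had 0 of 8, 1 of 10 and 2 of 14 reads tagged, or 9.38% over all 32 reads (95% Wilson interval 3.24% to 24.2%). For the 8 other genes replicate 1 was highest and replicate 3 lowest, as for all reads of these libraries (23.9%, 20.9% and 14.1%), and the ranges of all neighbours in this order overlapped.

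Set beside the 1391 genes read at 100 TPM or above, whose shares had a median of 18.4% (quartiles 11.8% and 25.2%), HTR8 lay above 89.2% of them, HTR5 above 84.5% and HTR4 above 66.7%, whereas HTA9 lay above 39.5%, H1.2 above 32.0% and H1.1 above 30.1%. The other 3 genes were below that level.

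**Figure D3:**
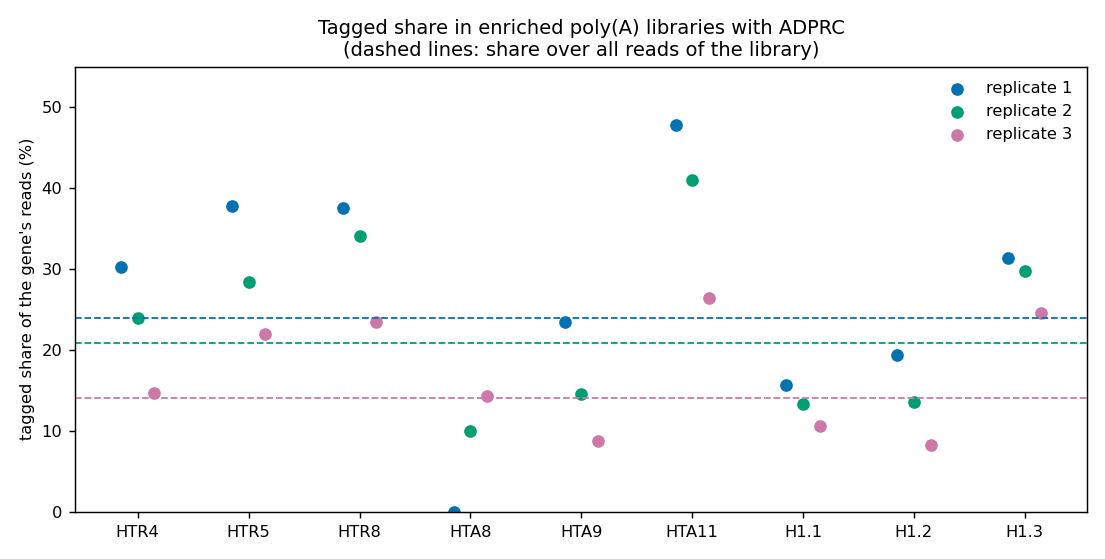
Tagged share of the reads of each histone gene (percent, linear axis from 0) in the 3 enriched poly(A) libraries with ADPRC, with dashed lines at the share over all reads of each library. HTA11, HTR8, HTR5, H1.3 and HTR4 lie above the line of the library in all 3, H1.1, H1.2 and HTA9 below it in all 3, and HTA8 rests on 32 reads.

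Whether a gene took a larger part of tagged than of untagged reads was tested within these libraries, each class scaled to its own total and the library as a block. HTA11 (log2 difference tagged minus untagged 1.29, SE 0.26, limma adjusted p = 0.00592), HTR8 (0.93, SE 0.16, 0.00353) and HTR5 (0.77, SE 0.13, 0.00287) were higher among tagged reads. H1.1 (-0.66, SE 0.19, limma adjusted p = 0.0202) and H1.2 (-0.66, SE 0.19, 0.0187) were lower. So 3 of 9 genes were called higher and 2 lower, where limma called 4.13% of 17704 genes higher and 37.8% lower. Over all genes tested the median was -0.77. On that scale the H1.1 and H1.2 values are close to the median gene, and HTA11, HTR8 and HTR5 lie above 98.4%, 95.9% and 94.1% of the genes tested. The genes tested include those with few reads. Over the 7996 with a mean of at least 10 CPM of the class the median was -0.51. Beside genes read at 100 TPM or above, the shares of H1.1 and H1.2 lay above only 30.1% and 32.0%. Those of HTR8 and HTR5 lay above 89.2% and 84.5%. The calls of HTA11, HTR8 and HTR5 held in all 10 alternatives, with adjusted p up to 0.0148. Those of H1.1 and H1.2 were lost with DESeq2, with centring (-0.22 for both), and without replicate 2, and H1.1 also without replicate 1 (limma adjusted p = 0.0832) and H1.2 without replicate 3 (0.0976) and with TMM scaling.

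H1.3 (0.70, SE 0.26, limma adjusted p = 0.0541), HTR4 (0.26, SE 0.15, 0.178), HTA9 (-0.48, SE 0.19, 0.0665) and HTA8 (-1.05, SE 0.62, 0.203) were not called. With centring H1.3 and HTR4 were called higher (limma adjusted p = 0.00691 and 0.00551). H1.3 was also called higher with the larger pseudocount (0.60, limma adjusted p = 0.0428) and with edgeR and TMM scaling (0.83, adjusted p = 0.0349), and without replicate 1 HTA9 was called lower (-0.70, limma adjusted p = 0.0147).

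**Figure D4:**
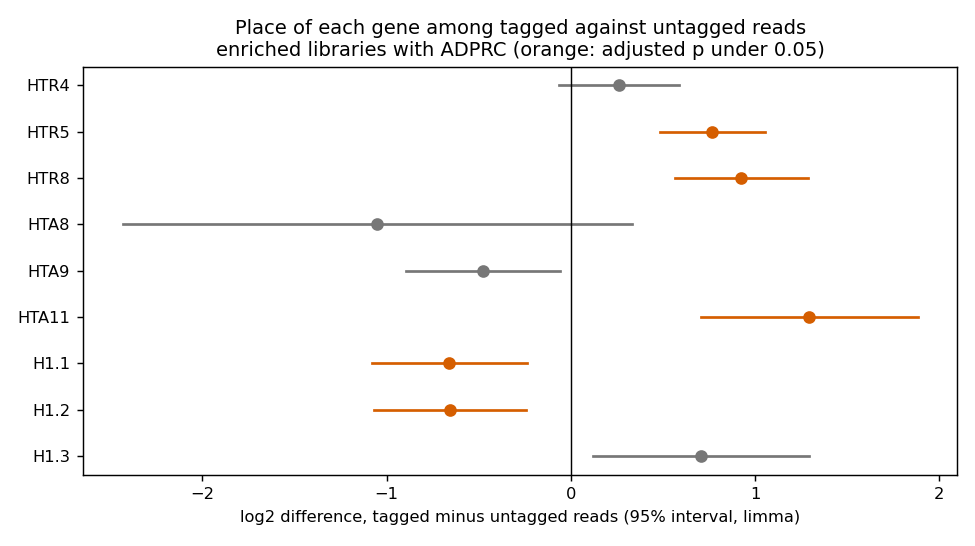
Log2 difference of each gene's part of tagged minus its part of untagged reads in the 3 enriched libraries with ADPRC (points, limma estimate; lines, 95% interval), in orange where the adjusted p over all genes was under 0.05. HTR5, HTR8 and HTA11 lie above 0 and H1.1 and H1.2 below it, and the intervals of H1.3 and HTA9 miss 0 although neither passed after adjustment.

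Within each family the share differed between genes in the same direction in all 3 enriched libraries for some pairs. HTA11 had a higher share than HTA9 in 3 of 3, by 2.59-fold on average. H1.3 had a higher share than H1.1 and than H1.2 in 3 of 3, by 2.18-fold and 2.19-fold. HTR4 had a lower share than HTR5 and than HTR8 in 3 of 3, with these 1.30-fold and 1.41-fold above it. HTR5 and HTR8 changed order between libraries, as did H1.1 and H1.2. In tagged reads H1.3 therefore made up 20.3% ± 2.72 of the H1 family against 10.5% ± 0.639 of all reads, and HTA11 26.5% ± 3.95 of H2A.Z against 12.3% ± 2.76. These directions are given without a test.

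Unenriched libraries give the share without selection by capture, on few tagged reads. HTR5 had 13 tagged of 787 reads, 1.65% (95% Wilson interval 0.968% to 2.81%), and HTR4 13 of 984, 1.32% (0.774% to 2.25%). The reads were 1, 6 and 6 in replicates 1, 2 and 3 for each of them. HTR8 had 3 of 392 (0.765%, 0.261% to 2.23%), all in replicate 2, and H1.1 had 2 of 261 (0.766%, 0.210% to 2.75%), also both in replicate 2. HTA9 had 1 of 529 (0.189%, 0.0334% to 1.06%) and HTA11 1 of 68 (1.47%, 0.260% to 7.87%). The intervals of HTA9 and HTR4 overlap, and the order of shares between genes was not tested at this depth. No tagged read was seen among 178 of H1.2, which allows a share of up to 1.69%, among 35 of H1.3 (up to 8.57%) or among 15 of HTA8 (up to 20%). These limits, like those of other genes without a tagged read, are 3 divided by the reads of the gene. The Wilson upper limits were larger, at 2.11% for H1.2, 9.89% for H1.3 and 20.4% for HTA8. In the unenriched library without ADPRC none of the 9 genes had a tagged read, among 295 reads of HTR4 (up to 1.02%) and 199 of HTR5 (up to 1.51%) for the most read of them.

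By edgeR, tagged against untagged reads in the unenriched libraries gave 0 of 9 genes higher and 0 lower, where edgeR called 0.192% of 13511 genes higher and 0.148% lower. HTR5 (log2 difference 1.40) and HTR4 (1.08) were at an unadjusted p under 0.05, at 0.0112 and 0.0412, with an edgeR adjusted p of 0.899. DESeq2 called 6 of the 9 lower, HTR4 and HTR5 among them, beside 1613 of the 13511 genes. Limma called 3 lower, HTA8, H1.2 and H1.3, none of which had a tagged read there, beside 10912 of the 13511. The direction in these libraries thus depended on the method.

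Background tagging without ADPRC was measurable for some genes after enrichment. HTR5 had 3 tagged of 1593 reads (0.188%, 95% Wilson interval 0.0641% to 0.552%), HTA9 2 of 612 (0.327%, 0.0897% to 1.18%) and HTR4 1 of 964 (0.104%, 0.0183% to 0.585%). H1.3 had 2 of 57 (3.51%, 0.968% to 11.9%), in replicates 1 and 3, and its interval lies above the 0.192% of all reads of these libraries. The gene with the highest background share thus had among the fewest reads. No tagged read was found among 351 of HTR8, 302 of H1.1, 399 of H1.2, 80 of HTA11 and 27 of HTA8, which allows shares of up to 0.855%, 0.993%, 0.752%, 3.75% and 11.1%.

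Enriched total RNA held too few reads for single genes. With ADPRC there were 4 reads each of HTR4 and HTR5, 3 of HTA9 and 1 each of HTR8 and H1.1, of which only the HTR8 read was tagged. Without ADPRC there were 2 reads of HTR8 and 1 each of HTR5 and HTA9, with none tagged. The remaining 4 genes had no read in either library, where 3 reads are worth 463 and 2425 TPM.

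The other histone genes and the proteins that handle histones were set beside the 9. Among all reads, 6 of 8 H4 genes were higher after enrichment and 0 lower (limma, list median 1.20 against 0.20 over all genes), as were 1 of 5 replicative H3.1, 1 of 9 other H2A, 1 of 9 tested H2B genes, 2 of 18 tested chaperones and remodellers and 0 of 6 high mobility group genes, beside the 2.99% of all genes. By edgeR, which called 3.32% of all genes higher and 2.46% lower, 3 of the 9 other H2A and 2 of the 6 high mobility group genes were higher. The H4 gene AT3G53730 went from 82.0 ± 20.4 to 188 ± 28.2 TPM (1.20, SE 0.20, limma adjusted p = 0.00613). Without ADPRC it had 96.6 TPM in the single unenriched library and 184 ± 21.6 TPM in the enriched ones. Between enriched libraries with and without ADPRC, limma called 0 of the 8 H4 genes higher and 0 lower in all reads. Over all genes it called 0.0731% higher and 0.0418% lower there. What part the tag had in the H4 difference was not tested. The more read H4 gene AT5G59690 had 253 ± 22.6 and 353 ± 138 TPM and was not called (0.41, limma adjusted p = 0.326). A difference between these H4 genes was not tested. The histone chaperone gene NAP1;2 (AT2G19480) went from 29.9 ± 13.3 to 78.6 ± 12.4 TPM (1.43, limma adjusted p = 0.0158), and NRP1 (AT1G74560), of the same protein family, had 30.0 ± 11.4 and 44.6 ± 3.84 TPM (0.61, 0.229).

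In the test of tagged against untagged reads after enrichment, 3 of 8 H4, 4 of 9 other H2A and 2 of 9 tested H2B genes were higher among tagged reads, and of these lists 1 H2B gene was lower. The list medians were 0.37, 0.53 and -0.02, against -0.77 over all genes, of which 4.13% were called higher and 37.8% lower. None of the 5 H3.1 genes was called in either direction (median 0.19; limma adjusted p = 0.347 for AT5G65360 and 0.491 for AT1G09200). HTB9 (AT3G45980), an H2B gene, had a share of 35.9% ± 6.84 (1.21, limma adjusted p = 0.000987), and HTB4 (AT5G59910), a more read one, had 19.2% ± 3.02 (-0.02, 0.943). The core histone genes HTA6 (AT5G59870) and HTA10 (AT1G51060) had 26.1% ± 5.65 and 21.7% ± 7.91 and were not called. Of 17 tested chaperones and remodellers 0 were higher and 10 lower (median -1.19), beside 37.8% of all genes lower. By edgeR 5 of the 17 were lower and 0 higher, beside 20.6% and 4.36% of all genes. Limma called 0 higher and 2 lower of 6 high mobility group genes (median -0.55). NRP1 had 11.6% ± 7.14 (-1.08, limma adjusted p = 0.0435) and HMGB3 (AT1G20696), a high mobility group protein gene, 12.4% ± 0.556 (-0.74, 0.0367). HMGB2 (AT1G20693) had 15.2% ± 1.67 (-0.42, 0.150). Of the centromeric and other H3 genes only HTR12 (AT1G01370), the centromeric histone, was tested, with 6 tagged of 16 reads, and AT1G75600 had 1 read before and 1 after enrichment. The genes named from these lists are the 2 most read of each.

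Likeness to the most read gene of each family was measured as the Euclidean distance between log2 values of tagged and all reads over the 10 poly(A) libraries, 20 values for each gene. Nearest to HTR4 were RPS15A (AT1G07770, distance 1.16), a ribosomal protein gene, AT3G48140 (1.52) and AT3G09500 (1.78). Nearest to HTA9 were CYSC1 (AT3G61440, 1.60), for a cysteine synthase family enzyme of mitochondria, RD22 (AT5G25610, 1.80), a gene responsive to drying, and EMB3010 (AT5G10360, 1.82). Nearest to H1.1 were CAO (AT2G47450, 1.37), which takes part in the insertion of antenna proteins in the chloroplast, CAM9 (AT3G51920, 1.39), for a calmodulin-like protein, and AT5G14910 (1.42). The distance rests on level as well as on the change between libraries, and it is a description without a test.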

How the data were processed

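The authors deposited a table of tagged (NAD-RNA) reads and a table of all reads per gene and library, named TPM per the file headers; in these deposited values the unit behaves as CPM of all reads of the library, without length correction. Whole reads were recovered from all 38774 tagged and 177709 other values that were not 0 (100% whole, tolerance 0.01 reads); 1 read of an ID that names no gene was left out. Library preparation was Nanopore direct RNA sequencing, per the labels' protocols. Not given in the sources used here are the aligner, build, annotation, strand handling and how tagged reads were told from others, so assignment between near-identical copies or overlapping genes is uncertain. The TAIR10.1 gene table gave symbols and neighbours for 22084 IDs, all 9 histone genes included.

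Two-sided tests on log2 of TPM plus a pseudocount used limma 3.58.1 (R 4.3.3, eBayes with trend) for genes above 0 in 3 or more columns, with Benjamini-Hochberg adjustment over all genes tested and calls at an adjusted p under 0.05. The pseudocount was 0.953 TPM with and without ADPRC, 1.23 for enriched against unenriched and 2.34 (CPM of the class) for tagged against untagged reads; folds of low genes are understated on this scale. Tagged against untagged reads in unenriched libraries was planned with limma, which made false calls there on simulated data, so edgeR 4.0.16 (quasi-likelihood, library totals) was used instead, a choice made after the results were seen. Alternatives were edgeR, DESeq2 1.42.0, other scalings, filters and pseudocounts, and leaving out each library. Same-numbered enriched libraries with and without ADPRC deviated together in all reads (r = 0.235, 0.183 and 0.178 over 8896 genes), so the numbers were taken to pair them there; the labels do not state what a number shares. Replicates differed by more than sampling noise (chi-square per gene 1.20 to 4.76). Share intervals are 95% Wilson intervals, ratio intervals are exact (Clopper-Pearson) and floors are 3 reads. For genes without a tagged read the share limit is 3 divided by the reads, which is lower than the Wilson limit for the genes given. All of these cover counting error only. The 9 genes, gene lists, tests and the rule for named genes (all 9, the 2 most read genes of each other list, and the 3 genes most like the most read of each family) were chosen with earlier results of these data known.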

Additional observations from a re-analysis of the deposited data

How the results depend on the processing

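Of tagged reads with against without ADPRC, 8 genes were higher in the main fit. The count was 7 with DESeq2, without H1.3, 3 with edgeR and TMM, and 0 with 5 lower under centring. Log2 differences under centring turned to -0.022 for HTR8, -1.37 for HTA9, -1.98 for HTA11, -1.47 for H1.1, -1.17 for H1.2 and -3.22 for H1.3. Under TMM that of H1.3 turned to -0.18. All 8 passed the filter only through libraries with ADPRC. It fixed the direction of HTR8, HTA11, H1.1 and H1.2 and favoured that of the others, so the count of 8 is no evidence for them. Leaving out 1 library gave 4 to 8 genes higher, with 4 tested where 4 were called. For tagged reads, enriched against unenriched, the 8 genes higher in the main fit became 1 with TMM, 5 with DESeq2 and 0 with centring, and 6 to 8 without 1 library. Of the 8, only HTR4 and HTR5 could pass the filter without enriched libraries. The directions of H1.2 and H1.3 were fixed by the filter, so that this count is no evidence for them. In the fit of genes tagged in all 3 unenriched libraries 2 were higher, as were all 326 genes in it. Centring turned HTR4 to -0.55, HTA11 to -0.91, H1.1 to -0.63 and H1.3 to -0.76. For all reads, enriched against unenriched, the 3 genes higher became 1 to 3 and the 0 lower 0 to 1 without 1 library, and 1 was lower with all 10 poly(A) libraries. Within enriched libraries the 3 genes higher among tagged reads became 5 under centring and 4 with TMM or the larger pseudocount, and the 2 lower became 1 with TMM, 0 with DESeq2 or centring and 0 to 2 without 1 library. In unenriched libraries 0 genes lower became 3 with limma, 1 with TMM and 6 with DESeq2, which turned HTR4 to -2.18, HTR5 to -1.85, HTR8 to -3.06 and H1.1 to -2.96. Over all 13511 genes the 20 called lower became 10912, 279 and 1613. The 3 pairs of genes with a changed ratio became 0 with ADPRC libraries alone, 0 with same-numbered enriched libraries averaged and 0 to 3 without 1 library, where fewer libraries raise the smallest p. The cause was not tested for the other shifts. Over all genes, all reads with against without ADPRC gave 14 higher and 8 lower, 80 and 16 with TMM, 56 and 11 with DESeq2, and 0 and 0 without control replicate 2 or 3. Tagged reads gave 7384 genes higher with ADPRC, 533 with TMM, 1166 with DESeq2 and 54 with 7114 lower under centring, and 7297 higher with enrichment, 127, 961 and 59 with 6063 lower. With the replicate number as a block the counts among the 9 genes were 8, 8, 3 and 0 in the 4 comparisons of libraries, as without it; over all genes it changed the calls of all reads with against without ADPRC to 151 higher and 62 lower, and those of enriched against unenriched from 563 and 369 to 635 and 410. Levels divided by length were not run. Depth limits HTA8, HTA11, H1.3 and all tagged reads of unenriched libraries.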
